A study of Mus musculus with 2 samples.

Results

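The metabotropic glutamate receptor genes Grm2, Grm3, Grm4, Grm5, Grm6, Grm7 and Grm8 were taken by their symbols from total RNA sequencing of the mouse left cerebral cortex. They are 7 of 55536 annotated genes and carry 36 annotated transcripts. By pharmacological class, Grm5 stands for group I, Grm2 and Grm3 for group II, and Grm4, Grm6, Grm7 and Grm8 for group III. The tissue came from 2 male mice of the hybrid strain B6CASTF1/J, 36 days old, which the labels number as biological replicates 1 and 2 and tie to the same donor identifier. Each mouse gave 1 library from 300 ng of total RNA, with reduction of ribosomal RNA and added ERCC spike-ins (synthetic RNAs of known amount). Neither mouse carried a treatment or an engineered allele per the labels, and both belong to 1 group, so the values describe this tissue and the spread between its mice. No p-value was computed, since the smallest that permuting 2 mice allows is 0.5.

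These receptors bind glutamate through a large extracellular domain and work as dimers, and they tune synapses over slower times than the glutamate-gated ion channels do. Group I receptors couple to Gq proteins and phospholipase C and sit mostly on the postsynaptic side. Group II and group III receptors couple to Gi/o proteins, lower cyclic AMP and hold back transmitter release from nerve endings, and the group II receptor of Grm3 is also found on astrocytes. In the retina, the group III receptor of Grm6 carries the light response of ON bipolar cells.

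The forms of these receptors differ mainly in the tail inside the cell, where scaffold proteins bind. The stretches that tell the annotated coding forms apart are shown because the isoform results below turn on them. All are read 5′ to 3′ on the strand of the gene from the GENCODE M21 transcripts (mm10), with the bases that mark the form in capitals. In Grm5-204 the capitals are an exon of 96 nucleotides at chr7:88116193-88116288 (plus strand), within the coding sequence of the tail, which Grm5-202 skips; this is the difference between the forms known as mGluR5b and mGluR5a.
Grm5-204: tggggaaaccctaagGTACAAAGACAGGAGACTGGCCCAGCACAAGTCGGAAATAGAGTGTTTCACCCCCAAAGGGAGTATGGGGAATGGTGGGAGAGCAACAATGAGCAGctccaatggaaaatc

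In the group III genes the capitals are the last coding bases with the stop codon. Grm7-202 ends at chr6:111566018-111566067 (plus strand), which gives mGluR7a, and Grm7-201 ends in an added exon at chr6:111501510-111501580 (plus strand), which gives mGluR7b. Grm8-201 (mGluR8a) ends at chr6:27275645-27275694 (minus strand), and Grm8-202 (mGluR8b) ends at chr6:27285685-27285734 (minus strand) in an extension of the exon before it. Grm4-201 ends at chr17:27426784-27426833 (minus strand).
Grm7-202: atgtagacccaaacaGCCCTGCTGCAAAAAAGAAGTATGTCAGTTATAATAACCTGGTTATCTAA
Grm7-201: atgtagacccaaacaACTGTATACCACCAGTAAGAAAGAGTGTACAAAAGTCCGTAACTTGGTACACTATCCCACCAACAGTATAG
Grm8-201: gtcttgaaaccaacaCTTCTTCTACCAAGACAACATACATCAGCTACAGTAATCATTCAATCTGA
Grm8-202: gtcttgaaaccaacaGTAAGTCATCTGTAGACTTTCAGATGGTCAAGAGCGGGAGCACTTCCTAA
Grm4-201: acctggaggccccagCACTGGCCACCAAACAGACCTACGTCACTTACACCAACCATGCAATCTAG

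The ends of Grm7-202 and Grm8-201 each matched that of Grm4-201 at 60% of 50 nucleotides, and they matched each other at 54%. The alternative end of Grm8-202 matched these ends at 28% to 30% of the same 50 positions. Grm7-201, whose end is longer, was not set against them base by base. Over the whole coding sequences of the 7 genes, identity was 68.3% to 73.0% for the 7 pairs within a group and 60.8% to 65.3% for the 14 pairs from different groups, so every pair within a group was more alike than every pair across groups.

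Of the 7 genes, 6 had a TPM (a transcript level scaled for length and to a fixed sum per library) of at least 1 in both mice, where 58.6% of all 22028 protein-coding genes did so. The exception was Grm6. These levels come from the deposited tables built on aligned reads (alignment-based), as do all others except where the read-based table, a further deposited quantification of the same libraries, is named. Grm5 was the highest of the 6 and Grm8 the lowest by mean, with a range that overlapped that of Grm4. For comparison, the median TPM of the 12902 protein-coding genes detected this way was 15.5 in replicate 1 and 16.4 in replicate 2, so Grm5, Grm3, Grm7 and Grm2 lay above that median in both mice, and Grm4 and Grm8 below it.

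**Figure D1:**
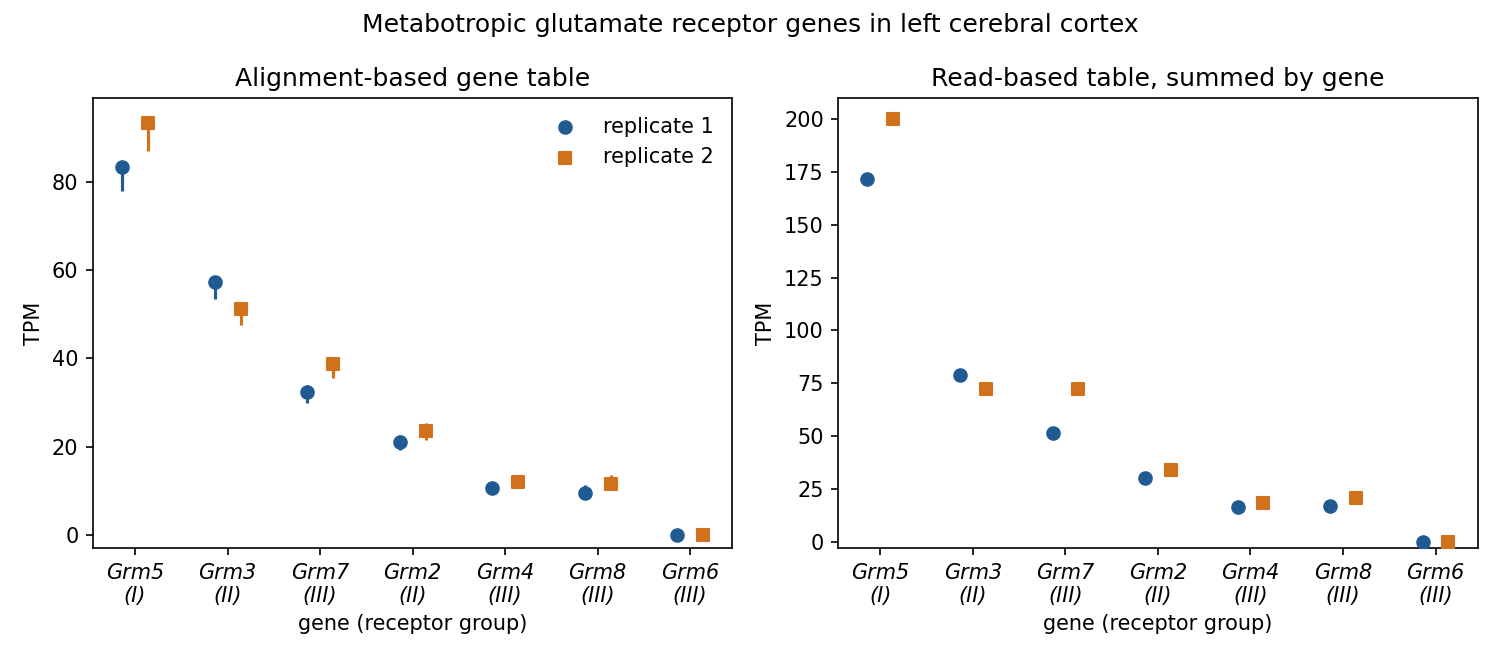
TPM of the 7 receptor genes in each mouse, in the alignment-based gene table (left, vertical lines show the deposited bounds of the estimate) and in the read-based table summed by gene (right). The axes differ in scale; Grm5 is highest in both panels, at 83.2 and 93.4 TPM on the left and 172 and 199.9 TPM on the right, and Grm6 lies at or next to 0.

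Group I was represented by Grm5, which encodes a Gq-coupled receptor of postsynaptic membranes (ENSMUSG00000049583.15, plus strand of chromosome 7, 87584168 to 88134907). Its level was 83.24 TPM in replicate 1 and 93.38 TPM in replicate 2, or 88.3 ± 7.17 (SD, n = 2), from 8891 and 8833 expected counts. In all, 95.1% of protein-coding genes had a lower mean TPM, and no other of the 7 genes reached its level in either mouse. The gene spans 551 kb.

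In group II, Grm3 (ENSMUSG00000003974.6, minus strand of chromosome 5, 9485541 to 9725170) was the more abundant gene, at 57.32 TPM in replicate 1 and 51.29 TPM in replicate 2 (54.3 ± 4.26, SD, n = 2) from 3329 and 2782 counts. The value of replicate 1 lies just above the deposited upper bound of that estimate, 57.28 TPM. Grm2, whose receptor acts mainly on nerve endings (ENSMUSG00000023192.12, minus strand of chromosome 9, 106643095 to 106656082), had 21.11 and 23.60 TPM in replicates 1 and 2 (22.4 ± 1.76, SD, n = 2), from 1376 and 1461 counts. The 2 genes of the group did not overlap in level, and Grm3 exceeded Grm2 by 1.24 ± 0.22 (SD, n = 2) in log2(TPM + 1), a ratio of 2.37. Their loci differ more than their coding parts, since Grm2 spans 13.0 kb and Grm3 240 kb, while their coding sequences hold 872 and 879 codons in 5 coding exons each.

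In group III, Grm7 was the most abundant. This gene encodes a low-affinity receptor of the presynaptic active zone (ENSMUSG00000056755.13, plus strand of chromosome 6, 110645581 to 111567230) and spans 922 kb. It had 32.49 TPM in replicate 1 and 38.63 TPM in replicate 2 (35.6 ± 4.34, SD, n = 2), from 2194 and 2410 counts. It exceeded Grm8 by 1.66 ± 0.0073 and Grm4 by 1.57 ± 0.066 (log2 ratio of TPM + 1, SD, n = 2), ratios of 3.15 and 2.97. The SD of 0.0073 between mice understates the uncertainty of the Grm7 to Grm8 ratio, which was 1.92 when transcripts with an incomplete annotated coding sequence were left out.

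Grm4 and Grm8, which encode 2 further presynaptic receptors, were close to each other. Grm4 (ENSMUSG00000063239.17, minus strand of chromosome 17, 27422387 to 27521403) had 10.63 and 11.90 TPM in replicates 1 and 2, or 11.3 ± 0.898 (SD, n = 2), from 899 and 919 counts. Grm8 (ENSMUSG00000024211.15, minus strand of chromosome 6, 27275119 to 28135178) had 9.58 and 11.61 TPM, or 10.6 ± 1.44 (SD, n = 2), from 605 and 607 counts. The ranges of these genes overlapped, so their order is not resolved by the gene table.

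Grm6 (ENSMUSG00000000617.14, plus strand of chromosome 11, 50850685 to 50866208) had 1 expected count in replicate 1 and 0 in replicate 2. A count of 0 allows up to 3 counts, which is a TPM of 0.0502 in replicate 2. The single count of replicate 1 was placed on Grm6-202, a processed transcript with no coding sequence. The read-based table gave 4 counts in replicate 1, nearly all on the coding transcript Grm6-201, and 0 in replicate 2. At this depth no Grm6 RNA was detectable in replicate 2, and in replicate 1 the counts were at the level of single reads.

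Genes that act with Grm6 in ON bipolar cells of the retina were low as well. Of 7 such genes, 1 reached a TPM of 1 in both mice, and the median TPM was 0.195 ± 0.0495 (SD, n = 2). That gene was Rgs11, a regulator of G-protein signalling, at 16.1 and 23.9 TPM in replicates 1 and 2. The read-based table detected 2, with Isl1 at 1.75 and 2.26 TPM. The others were the channel gene Trpm1 (mean TPM 0.125), the bipolar cell proteins Nyx (0.215), Gpr179 (0.175) and Lrit3 (0.06), the transcription factor Isl1 (0.94 and 1.18 TPM) and Pcp2 (0.25 and 0 TPM). Between the mice, Gpr179 passed a log2 ratio of 1 on 13 and 30 counts, as 1 of the 4 of these genes whose mean count was 20 or more.

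In order of mean TPM the genes ran Grm5, Grm3, Grm7, Grm2, Grm4, Grm8 and Grm6. Neighbours were taken as apart where both values of the higher gene lay above both values of the next. This held for 5 of 6 neighbouring pairs, and the pair that overlapped was Grm4 and Grm8. In the read-based table it held for 4 of 6 pairs: there Grm3 had 78.74 and 72.17 TPM in replicates 1 and 2 and Grm7 51.36 and 72.18 TPM, so the values met in replicate 2. The read-based means also put Grm8 (18.9 ± 2.59 TPM, SD, n = 2) above Grm4 (17.4 ± 1.14), again with overlapping ranges.

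Summed by class, group I had 83.24 and 93.38 TPM in replicates 1 and 2, group II 78.43 and 74.89 TPM, and group III 52.72 and 62.14 TPM. As shares of the 7-gene sum these were 39.7% ± 1.20 for group I, 34.5% ± 2.88 for group II and 25.8% ± 1.68 for group III (SD, n = 2). Group I, here Grm5 alone, exceeded group III by 0.62 ± 0.050 and group II by 0.20 ± 0.16 (log2 ratio of sums, SD, n = 2). Group II exceeded group III by 0.42 ± 0.21. The group I sum lay above the group II sum in both mice, more closely in replicate 1 than in replicate 2.

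The order of group I and group II depended on which transcripts were counted. Over protein-coding transcripts only, group I had 67.26 and 71.12 TPM in replicates 1 and 2, against 77.99 and 74.19 TPM for group II, and the log2 ratio turned to -0.14. In the read-based table group I stood above group II by 0.78 over all transcripts, and the ratio was -0.094 over protein-coding transcripts. The direction between these 2 groups is therefore not fixed by these tables, while group III stayed below group I in mean under each of these sums (by 0.14 to 0.93). In single mice this was not always so. In replicate 2 of the read-based table, group I had 103.6 TPM over protein-coding transcripts, against 104.4 TPM for group III. Over all transcripts of that mouse and table, group II had 106.03 TPM, against 111.1 TPM for group III.

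**Figure D2:**
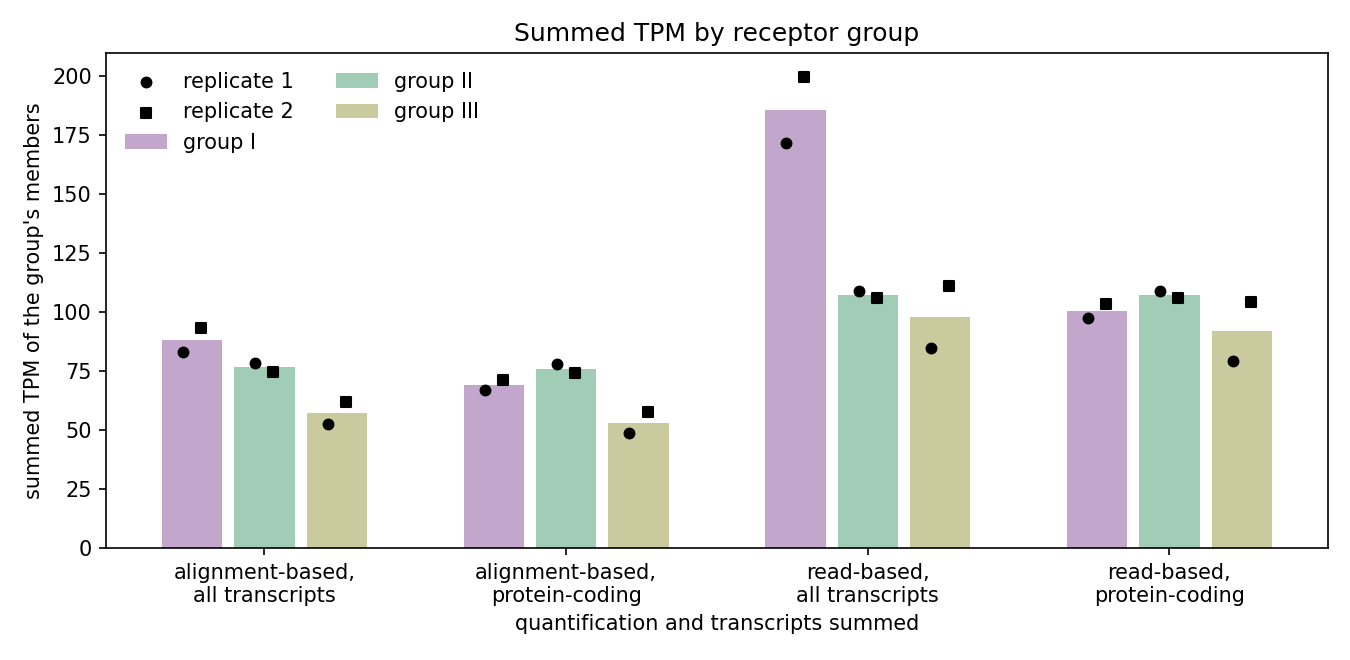
Summed TPM of the receptor genes of group I (Grm5), group II (Grm2 and Grm3) and group III (Grm4, Grm6, Grm7 and Grm8) under 4 ways of summing; bars are means of 2 mice and points are the mice. Group I is highest where all transcripts are summed and lies below group II where protein-coding transcripts alone are summed, at 69.2 against 76.1 TPM in the alignment-based table.

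Within Grm5, TPM was spread over coding and non-coding transcripts. Grm5-202, of 8047 nucleotides and 1171 codons, held 47.7% and 43.8% of the gene's TPM in replicates 1 and 2 (45.8% ± 2.76, SD, n = 2). Grm5-204, of 1203 codons, held 33.1% and 32.3% (32.7% ± 0.530). Grm5-205, a transcript of 551 nucleotides with no coding sequence at the 5′ end of the gene (chr7:87584398-87602402), held 13.2% and 13.7% (13.5% ± 0.311).

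Grm5-205 rested on 98 and 106 of the gene's expected counts, or 1.10% and 1.20%. In the read-based table it was the leading Grm5 transcript, at 33.2% and 35.8% of TPM, on 187 and 222 counts. The deposited effective length, by which counts are divided to give TPM, was 452 nucleotides for it in the alignment-based table and 212 and 214 in the read-based table. Protein-coding transcripts held 96.1% of Grm5 counts, 78.5% ± 3.29 of its TPM and 54.4% ± 3.63 of its read-based TPM (means, SD, n = 2). In counts the tables were closer, with 9743 and 9752 read-based counts for the whole gene. The level over protein-coding transcripts was 69.2 ± 2.73 TPM in the alignment-based table and 100.7 ± 4.14 TPM in the read-based one.

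Among the coding transcripts of Grm5, the share with the 96-nucleotide exon was 40.9% in replicate 1 and 42.5% in replicate 2, or 41.7% ± 1.07 (SD, n = 2). The read-based table gave 46.5% ± 1.10. Both forms, which correspond to mGluR5a and mGluR5b, were present, with the longer coding form below the shorter in both mice. Grm5-202 and Grm5-204 also differ in annotated length (8047 and 4500 nucleotides), so this share rests on all bases that tell them apart and not on the exon alone.

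Grm7 was split in a like way between mGluR7a and mGluR7b. Grm7-202, of 915 codons, held 49.0% and 45.5% of the gene's TPM in replicates 1 and 2 (47.2% ± 2.45, SD, n = 2). Grm7-201, which has an added exon of 92 nucleotides and 922 codons, held 35.4% and 38.9% (37.2% ± 2.50). Of the TPM of these 2 forms, 44.0% ± 2.94 lay on the form with the added exon, and 48.4% ± 4.91 in the read-based table, where the values were 44.9% in replicate 1 and 51.8% in replicate 2. Which form led in the read-based table therefore differed between the mice. Grm7-202 and Grm7-201 also differ in annotated length (4197 and 3127 nucleotides), so these shares do not rest on the added exon alone. The tail of mGluR7a, printed above as the end of Grm7-202, is the part known to bind the scaffold protein of Pick1, which stood at 20.6 and 22.3 TPM.

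In Grm8 the form with the alternative tail, known as mGluR8b, was the more abundant. Grm8-202 held 56.4% and 43.7% of the gene's TPM (50.1% ± 9.001, SD, n = 2). Grm8-201 held 18.2% and 18.1% (18.2% ± 0.0283), and both have 908 codons. Forms annotated with the extension of 55 nucleotides that gives Grm8-202 its own tail took 75.6% and 70.6% of the TPM of the complete coding forms. This was 73.1% ± 3.55, and 69.3% ± 1.30 in the read-based table. Grm8-202 and Grm8-201 also differ in annotated length (3856 and 2830 nucleotides), so this share rests on all bases that tell them apart. Grm8-204, whose annotated coding sequence is incomplete, held 15.1% and 25.8% (20.5% ± 7.57). The counts behind these shares were small, 399.68 and 350.51 for Grm8-202, 93.57 and 105.73 for Grm8-201 and 32.50 and 62.85 for Grm8-204, and the SD of Grm8-202 was the widest of the 5 leading isoforms.

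Grm4 had a single main form. Grm4-201, of 912 codons, held 88.5% and 83.4% of the gene's TPM in replicates 1 and 2 (85.9% ± 3.55, SD, n = 2). In the read-based table it held 66.4% ± 3.67, and Grm4-205, which has the same number of codons and was at 0 in the alignment-based table, held 24.9% ± 4.67. Counted together, transcripts with the full coding length made up 88.1% ± 2.84 of the complete coding forms in the alignment-based table and 94.1% ± 0.755 in the read-based one.

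Grm2 had 2 forms of nearly equal share that differ inside the coding sequence and not at its end. Grm2-201, of 872 codons, held 51.3% and 54.0% of the gene's TPM (52.7% ± 1.94, SD, n = 2). Grm2-203, of 594 codons, held 46.6% and 43.0% (44.8% ± 2.54). In counts, which are not divided by length, the split was 983 and 1081 for Grm2-201 of 4711 nucleotides and 390 and 375 for Grm2-203 of 2111 nucleotides. The form without the internal stretch took 46.0% ± 2.32 of the TPM of the 2 forms in the alignment-based table and 51.7% ± 1.80 in the read-based table, so the leading form changed between tables.

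Grm2-203 lacks 834 nucleotides, or 278 codons in frame, that Grm2-201 carries within a single exon at chr9:106647271-106648104 (minus strand). Both edges of that stretch are printed because they fall inside an exon of Grm2-201. Capitals mark bases of the stretch and lower case the bases that both forms share.
Grm2-201 start of stretch: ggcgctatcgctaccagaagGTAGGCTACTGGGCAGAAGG
Grm2-201 end of stretch: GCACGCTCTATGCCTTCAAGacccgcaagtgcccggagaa

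The stretch began with GT and ended with AG, the usual first and last bases of an intron, and the 3 bases before it were the same as its last 3 bases. Reads across the junction of Grm2-203 were not analysed here, and its share rests on all bases that tell it from Grm2-201. Grm3 has a single annotated transcript, Grm3-201, so no isoform share could vary.

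**Figure D3:**
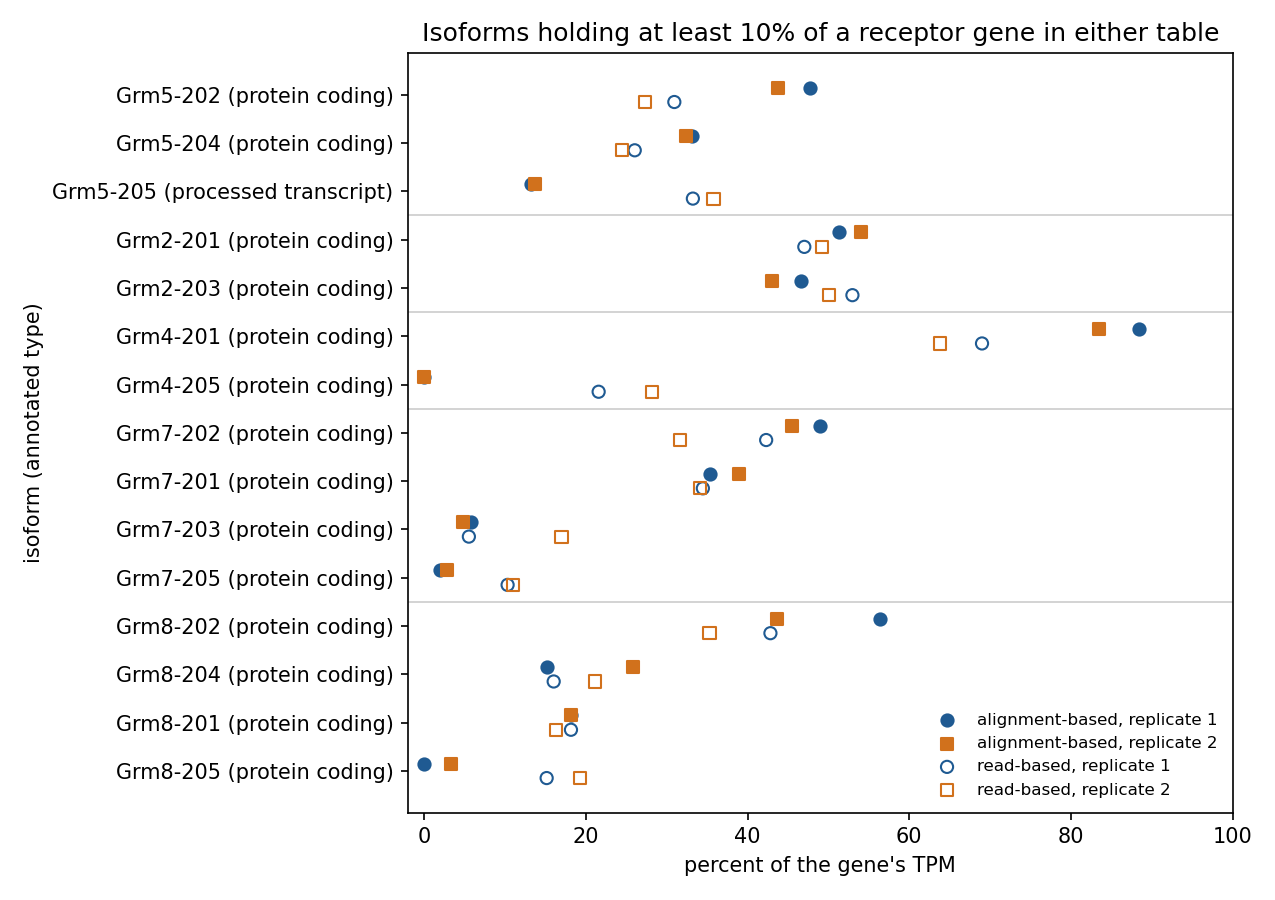
Percent of each gene's TPM on every isoform with a mean of at least 10% in either table, for Grm5, Grm2, Grm4, Grm7 and Grm8; filled symbols are the alignment-based and open symbols the read-based table, 1 symbol per mouse. The mice lie closer together than the tables do for Grm5-205, Grm4-205 and Grm8-205, which are higher in the read-based table in both mice.

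Of the 5 detected receptor genes with at least 2 transcripts, 3 had the same leading isoform in both tables (Grm4, Grm7 and Grm8, by mean share), and Grm5 and Grm2 did not. Over all 11678 protein-coding genes of this kind the share was 76.1%. In all 5 genes the alignment-based leading isoform was the same in both mice. The share of all genes for which this holds is not given here, so it is not read as a trait of the receptor genes. In the read-based table Grm7-202 led Grm7 in replicate 1 (42.3%), and Grm7-201 led it in replicate 2 (34.1% against 31.7%). Transcripts annotated as targets of nonsense-mediated decay held 7.94% ± 0.0283 of Grm7 TPM, all on Grm7-204, and processed transcripts held 9.66% ± 0.884 of Grm8 TPM (SD, n = 2).

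The difference between the mice was measured for each gene. It is given as the log2 ratio of replicate 2 over replicate 1, from expected counts scaled by TMM (trimmed mean of M values), with a 95% interval that covers counting error only. All receptor genes but Grm6 had a mean count of 20 or more, and 0 of these 6 passed a ratio of 1 in size, where 0.84% of 13812 protein-coding genes did. The median size of the ratio was 0.093 for the 6 genes and 0.12 for all genes tested. Neither value sets the receptor genes apart. At a share of 0.84%, 0 of 6 is the usual outcome, and the genes tested include many of low count, which spread more. The 5th to 95th percentile was -0.75 to 0.96 at a mean count near 29, against -0.23 to 0.19 near 2544.

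Replicate 2 had more of Grm7 (0.17, interval 0.086 to 0.25) and of Grm2 (0.12, 0.013 to 0.23). The intervals for Grm4 (0.066, -0.068 to 0.20), Grm8 (0.039, -0.13 to 0.20) and Grm5 (0.025, -0.018 to 0.067) included 0. In TPM, which also depends on transcript length, Grm4 (10.63 and 11.90), Grm8 (9.58 and 11.61) and Grm5 (83.24 and 93.38) were each higher in replicate 2. Over transcripts with a complete annotated coding sequence these levels were 10.44 and 11.52, 7.14 and 7.18, and 67.26 and 71.12 TPM. Grm3 was the only one of the 6 that was lower in replicate 2, at -0.22 (-0.30 to -0.15), except that Grm5 also fell below 0, to -0.0094 with DESeq2 size factors and to -0.0067 in the read-based table. Set against each of the other 5 genes by counts in the same library, which needs no scaling, Grm3 was lower in replicate 2 by 0.25 to 0.39 on the log2 scale. The 5th percentile of genes of similar count (mean near 2544) was -0.23, so Grm3 lay just inside the central range and Grm7 (95th percentile 0.19) did as well.

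Marker levels of cell types are given beside Grm3. The 5 markers of cortical excitatory neurons each had a ratio below 0 (-0.49 to -0.078), with a median of -0.20. In TPM, Tbr1 was slightly higher in replicate 2 (53.23) than in replicate 1 (52.61), and the other markers of this list were lower. The summed level of the 5 was 1492.24 TPM in replicate 2 against 1661.13 TPM in replicate 1. The 5 oligodendrocyte markers were each lower in replicate 2, by -0.45 to -0.24, and their summed level was 660.12 TPM in replicate 2 against 813.96 TPM in replicate 1. Of the 5 astrocyte markers, 4 had a ratio below 0 (-0.16 to -0.020) and Gfap was at 0.12, with a median of -0.084. Their summed level was 350.09 TPM in replicate 2 and 343.86 TPM in replicate 1, so the ratios of counts and the sum of TPM differ in direction. Median ratios were -0.010 for interneuron, 0.093 for oligodendrocyte precursor, -0.069 for microglia and -0.0026 for endothelium markers. Summed levels in replicates 1 and 2 were 443.95 and 477.72 TPM for interneuron and 99.27 and 100.85 TPM for oligodendrocyte precursor markers. They were 98.09 and 97.28 TPM for microglia and 93.07 and 90.92 TPM for endothelium markers. Protein-coding genes with a mean count near 3993.5 and near 9977 had median ratios of -0.058 and -0.080. The part of any cell type in the Grm3 value was not tested. In a tissue library, fewer cells of a type and less RNA per cell cannot be told apart. Scaled by spike-in totals, the median gene stood 0.38 higher in replicate 2 and the Grm3 ratio turned to 0.17, still the lowest of the 6, which then ranged up to 0.57 for Grm7.

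**Figure D4:**
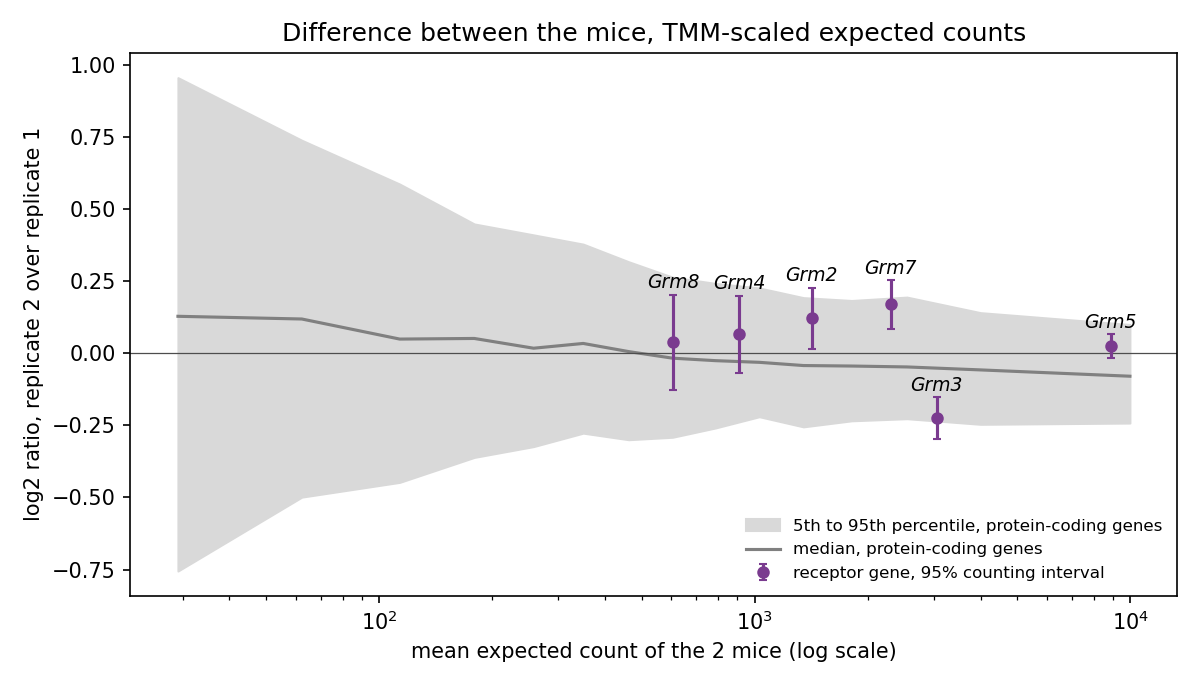
Log2 ratio of replicate 2 over replicate 1 against the mean expected count (log scale) for the 6 detected receptor genes, with 95% counting intervals; the grey band is the range from the 5th to the 95th percentile of protein-coding genes in 15 bins of count. Grm3 lies at the lower edge of the band at -0.22, and the other 5 genes lie between 0.025 and 0.17.

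Genes that overlap the receptor loci carried few counts. Of 16 annotated genes that overlap a receptor gene, 7 had a mean count of at least 10, and 4 overlap an exon of it. The 5 within Grm5 introns on its strand were Gm44846 (159 and 232 counts in replicates 1 and 2), Gm44847 (98 and 135), Gm44926 (26 and 42), Gm44848 (30 and 37) and Gm44927 (23 and 28). Each was higher in replicate 2, as was the retained-intron transcript Grm5-206, at 4.02% and 5.76% of Grm5 TPM. Protein-coding genes with a mean count near 29 had a median ratio of 0.13 (5th to 95th percentile -0.75 to 0.96). Near 179 counts the median was 0.051 (-0.36 to 0.45). The 5 genes lie in introns of the same gene, so their shared direction is not read as separate observations. In Grm3 the intronic Gm42455 had 18 counts in each mouse. Gm20387, antisense to the first exon region of Grm7, had 58 and 69 counts; the labels name a spike-in profile for stranded libraries, but the sources used here do not say whether counting used strand.

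Genes through which the receptors signal were nearly all detected, where 58.6% of all protein-coding genes were. These lists and those below were chosen with earlier results of these data known, so their detected counts are description only. All 14 genes of the Gq and phospholipase C arm, which acts below group I receptors, passed the TPM threshold of 1. Their median TPM was 59.2 ± 0.813 (SD, n = 2). They ran from Plcb3, a phospholipase C, at 5.17 and 5.52 TPM to the protein kinase C gene Prkcb at 487 and 432 TPM. All 14 genes of the Gi/o and adenylyl cyclase arm, which serves groups II and III, were detected too, at a median of 54.7 ± 0.721 TPM. Their range was from the adenylyl cyclase Adcy8 at 8.54 and 9.92 TPM to the Go subunit gene Gnao1 at 318 and 327 TPM. None of the genes of either arm passed a log2 ratio of 1 between the mice, where 0.84% of protein-coding genes did.

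Scaffold and binding partners were all detected, 15 of 15, with a median TPM of 39.8 ± 0.346 (SD, n = 2), from Homer3 at 4.15 and 4.26 to Ncdn at 391 and 408. The Homer proteins bind the tail of group I receptors and tie them to the calcium store below the synapse. Homer1 was by far the most abundant of them, at 218 TPM in replicate 1 and 163.85 TPM in replicate 2, with Homer2 at 31.4 and 32.3 TPM. Homer1 was lower in replicate 2 by -0.49, a larger difference than that of any receptor gene. The postsynaptic proteins Elfn1 and Elfn2, known to recruit group III receptors across the synapse, had 14.96 and 15.28 TPM for Elfn1 and 69.0 and 70.03 TPM for Elfn2.

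Genes that end receptor signalling were detected in full (9 of 9, median TPM 36.9 ± 4.68, SD, n = 2), from Rgs14 at 21.7 and 23.7 to Rgs4 at 248 and 187. Of 4 genes that make or break down NAAG (N-acetylaspartylglutamate, a peptide that activates the receptor of Grm3), 3 were detected. The synthesis gene Rimklb had 36.5 and 40.8 TPM, and the peptidase gene Naalad2 had 0.28 and 0.73 TPM on 15 and 20 counts. Beside these lists the 7 receptor genes had a median of 22.4 TPM, the mean level of Grm2.

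**Figure D5:**
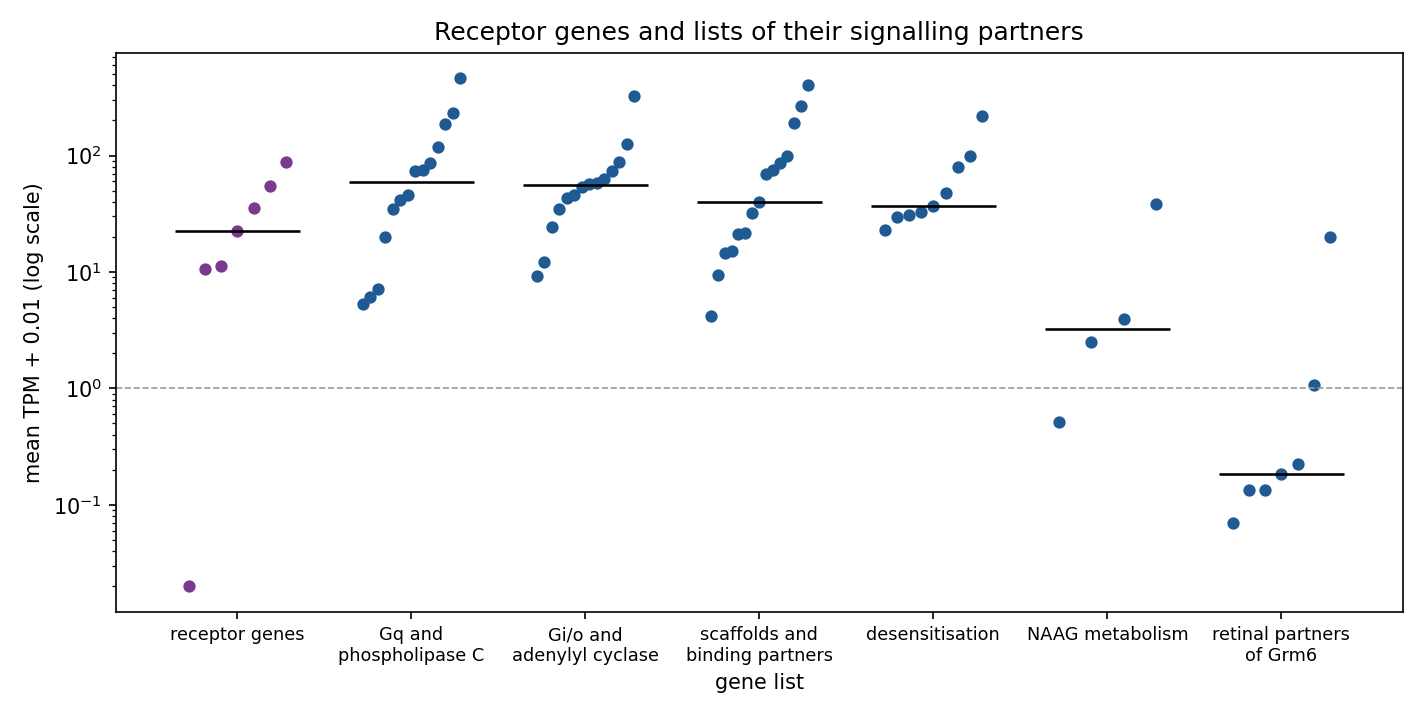
Mean TPM of 2 mice plus 0.01 (log scale) for each receptor gene and each gene of 6 lists of signalling partners; black lines are medians and the dashed line is a TPM of 1. The receptor genes fall between 10.6 and 88.3 TPM except Grm6 at 0.01. Of the 7 retinal partners of Grm6, only Rgs11 and Isl1 (mean TPM 1.06) lie above the dashed line. Isl1 was under a TPM of 1 in replicate 1 (0.94).

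The labelled tissue was checked against marker lists. All 5 markers of cortical excitatory neurons (median TPM 52.9), all 5 of interneurons (51.8) and all 5 of each of 5 glial and vascular classes reached a TPM of 1 in both mice. Of other regions, 1 of 6 retinal, 2 of 5 cerebellar and 2 of 4 olfactory bulb markers did so, against 58.6% of all protein-coding genes. These were Prox1 (3.75 and 3.85 TPM in replicates 1 and 2), Car8 (3.61 and 3.3), Zic4 (1.23 and 2.09), Cdhr1 (5.05 and 7.49) and Doc2g (2.06 and 3.01). Crx of the retina and Barhl1 of the cerebellum were at 0 counts in both mice. In the read-based table Crx had 0.32 and 0.55 TPM. Expected counts summed to 29915463 for replicate 1 and 27988085 for replicate 2, and 17295 and 17012 of them fell on the 7 receptor genes.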

How the data were processed

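Total RNA libraries of 2 mice were analysed, 1 library each. Per the file headers and the deposited listing, the authors quantified each library against mm10 and GENCODE M21, in gene and transcript tables made from a transcriptome alignment and in a further transcript table made from the reads. No source used here names the aligner or the quantification tool. From the alignment, the authors deposited expected counts, which are estimated reads and not normalized. They also deposited TPM, scaled over all rows with spike-ins and small RNAs included. Each transcript's IsoPct, the percent it takes of its gene in TPM, was deposited as well. Deposited bounds of the TPM estimate, treated as score values because their level is not stated, are plotted, and 1 is printed. From the reads, the authors deposited estimated counts and TPM per transcript. Levels depend on the effective length by which each table divides counts.

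Gene types, overlaps, exons and coding sequences came from GENCODE M21, which annotated all 55536 gene rows, 22028 of them protein-coding. Sequences came from its transcript file, and whole coding sequences were aligned globally with Biopython 1.88. Detection needed a TPM of 1 in both mice. Ratios between genes used log2(TPM + 1) within a mouse; ratios of group sums used no pseudocount. Ratios between mice used expected counts rounded to whole numbers, scaled with edgeR 4.0.16 (TMM, R 4.3.3) and a prior count of 0.5, with exact binomial (Clopper-Pearson) 95% intervals; these and the limit of 3 counts cover counting error only. Only the TMM scaling and the ratio between mice were tested on simulated data, with changes larger than those of the receptor genes. Levels, isoform shares, group sums and sequence comparisons were not simulated. The 2 libraries differed beyond sampling noise (chi-square of 11.6 per degree of freedom over 18268 genes) and were counted separately; SDs cover the spread between these 2 mice, which carry the same donor identifier.

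The receptor genes, partner lists and marker lists were chosen with earlier results of these data known. Named partners are the highest and lowest gene of each list, all Homer genes, Elfn1, Elfn2 and genes under a TPM of 1. Named isoforms are the leading one of each gene and those with a mean of at least 10%. Named overlapping genes have a mean count of at least 10. Pick1, Grm5-206, Grm7-204, Grm4-205 and the named markers of cell types and regions fall outside that rule and were chosen after their values were seen. Alternatives were the read-based table, TPM rescaled to nuclear protein-coding genes, coding transcripts only, other TPM thresholds (0.1 and 5), a pseudocount of 0.1, a count minimum of 100, library totals, spike-in totals, size factors of DESeq2 1.42.0, and leaving out each mouse. The remaining steps ran in Python 3.11.15 (scipy 1.17.1, pandas 2.3.3, matplotlib 3.10.9).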

Additional observations from a re-analysis of the deposited data

How the results depend on the processing

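With 2 mice the SD is a rough scale, and a value was taken as moved where it shifted by more than that SD. In the read-based table the summed TPM was 186 for group I, 108 for group II and 98.1 for group III, and the log2 ratios were 0.78 (I over II), 0.14 (II over III) and 0.93 (I over III), 1.29 (Grm5 over Grm3), 1.64 (Grm7 over Grm8), 1.75 (Grm7 over Grm4) and 1.59 (Grm5 over Grm7). Rescaling TPM to nuclear protein-coding genes gave sums of 195, 169 and 127 for groups I, II and III, and 1.71 for Grm7 over Grm8. With protein-coding transcripts only, group I had 69.2 TPM and its ratio over group II reversed to -0.14, with 0.38 for I over III, 0.35 for Grm5 over Grm3, 1.67 for Grm7 over Grm8, 1.49 for Grm7 over Grm4 and 1.06 for Grm5 over Grm7. The next 2 sums were chosen after seeing the data. With complete coding sequences only, group I was 69.2 and group III 48.2 TPM, and the ratios were -0.14 (I over II, reversed), 0.66 (II over III), 0.53 (I over III), 0.35 (Grm5 over Grm3), 1.92 (Grm7 over Grm8), 1.37 (Grm7 over Grm4) and 1.18 (Grm5 over Grm7). With read-based protein-coding transcripts only, the sums were 100.7, 107 and 91.9 TPM for groups I, II and III, and the ratios -0.094 (I over II, reversed), 0.14 (I over III), 0.41 (Grm5 over Grm3), 1.69 (Grm7 over Grm4) and 0.82 (Grm5 over Grm7). A pseudocount of 0.1 gave 1.74 for Grm7 over Grm8 and 1.65 for Grm7 over Grm4. The read-based shares of coding forms were 46.5% for the Grm5 exon, 48.4% for the Grm7 exon, 69.3% for the Grm8 extension, 51.7% for the shorter Grm2 form and 94.1% for the full length of Grm4. The reversals follow from leaving out non-coding Grm5 transcripts; the cause of the other shifts was not tested.

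The count of 6 detected genes held at TPM thresholds of 0.1 and 5. Leaving out a mouse leaves the value of the other, given in the report, and with 2 mice this cannot shift a mean by more than its SD, so it says nothing about stability. The read-based table detected 2 of the 7 retinal partners of Grm6, against 1, and 2 of the 6 retinal markers, against 1. A TPM threshold of 5 left 1 of the 4 NAAG genes, against 3. Spike-in scaling raised the protein-coding genes past a log2 ratio of 1 between the mice to 318, against 116 with TMM, and a mean count of at least 100 left 29; no receptor gene passed under any scaling. No paired analysis was possible because both libraries belong to 1 group. Depth limits Grm6, with at most 1 alignment-based count, and the isoform shares of Grm8.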
